A study of Homo sapiens with 16 samples.

Results

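The genes described here encode the cytosolic and mitochondrial heat shock proteins, their co-chaperones, the chaperonin CCT and the R2TP complex as measured in HCT116, a line established from a human colorectal carcinoma. They were taken by symbol from a fixed list of 43 genes, all of which were among the 28502 symbols listed. RNA was measured by poly(A) RNA-seq after transfection with small interfering RNA (siRNA) against EZH1 (siEZH1), a histone H3 lysine 27 methyltransferase, against UXT (siUXT), a small prefoldin-like protein, or with a control labelled NC, and after treatment with tumour necrosis factor (TNF) or phosphate-buffered saline (PBS). The 6 conditions were siEZH1 TNF, siEZH1 PBS, siUXT TNF, siUXT PBS, NC TNF and NC PBS, with 1 library each. No replicate of a condition was available, and the labels state neither dose, time nor siRNA sequences. The series also holds 10 chromatin samples, which were not analysed here.

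Values are FPKM (fragments per kilobase of transcript, scaled to sequencing depth), so levels can be set against each other between genes, and changes are differences of log2(FPKM + 1). The siRNA target UXT was at 24.6 and 27.7 FPKM in siUXT TNF and siUXT PBS, against 59.6 and 62.2 in NC TNF and NC PBS. EZH1 was at 4.14 and 4.05 FPKM in siEZH1 TNF and siEZH1 PBS, against 5.12 and 5.45 in NC TNF and NC PBS. Steps among the lowest values put the read depth of each library between 0.719 and 1.02 of that of NC PBS. It was 0.719 in NC TNF, 0.72 in siEZH1 TNF and 1.02 in siEZH1 PBS, but 0.958 and 0.951 in siUXT TNF and siUXT PBS. The summed FPKM of 9 colorectal epithelial markers lay between 1748 and 2578, although VIL1 and CDX1 were at 0 or near it in every library, and that of 12 leukocyte, endothelial and fibroblast markers between 6.72 and 10.8. In bulk RNA, fewer expressing cells and less RNA per cell cannot be told apart. The siUXT PBS library stood apart from the other libraries across the transcriptome: of the 11845 loci tested (mean over the libraries of 1 FPKM or more), it held the lowest of the 6 values in 30.6% and the highest in 33.7%. Tests that rest on it are given also without it where they can be estimated, which the siUXT by treatment term described further on cannot.

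Molecular chaperones bind unfolded segments of other proteins and, mostly in cycles of ATP binding and hydrolysis, let them fold. HSP70 proteins take up clients from J-domain proteins and can hand them to HSP90 through STIP1 (HOP), which holds both; PTGES3 (p23), AHSA1 (AHA1) and CDC37 then act on the HSP90 cycle. CCT is a ring-shaped chaperonin that folds actin and tubulin, and R2TP is an HSP90 co-chaperone that assembles large complexes such as RNA polymerase II and small nucleolar ribonucleoproteins, in human cells together with a prefoldin-like module that contains UXT. HSF1 is the transcription factor that induces many of these genes on heat shock, through inverted repeats of the unit GAA in their promoters.

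Those promoter repeats are shown first, as a description of the genes. Whether they had a part in differences between libraries was not tested. RefSeq promoter windows on GRCh38.p14, 250 bases before to 50 after a gene's start, were found for 37 of the 43 genes, with 51 windows in all. Both strands were searched for a 2-unit element, GAA and TTC in either order with any 2 bases between them, and for a 3-unit element, in which 3 such units alternate with 2 bases between neighbours and which therefore always contains the 2-unit element. At least 1 window held the 3-unit element in 7 of the 37 genes (18.9%), which were CHORDC1, DNAJA1, DNAJB6, HSP90AA1, HSP90AB1, HSPA8 and HSPD1, against 0.608% of 27305 genes in the promoter table. The 2-unit element was present in 18 of the 37 (48.6%), against 16.2% of all genes. CCAAT, also searched on both strands, was in 14 (37.8%), against 39.7%. For HSP90AB1 and HSPA8, 1 of 2 such stretches is given. Stretches upstream of the start are printed 5′ to 3′ on the gene's strand, with the 3-unit elements in capitals, or the 2-unit element in HSPA1A and HSPA1B; further 2-unit elements are left in lower case. Besides the 3-unit elements, the 2-unit elements of HSPA1A and HSPA1B are shown, because these genes are neighbouring copies whose windows were identical at 277 of 300 aligned bases (92.3%). A match of letters is not evidence of binding.
HSP90AA1, chr14:102087100-102087152, minus strand: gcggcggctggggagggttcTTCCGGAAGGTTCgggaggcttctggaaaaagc
HSP90AB1, chr6:44247811-44247863, plus strand: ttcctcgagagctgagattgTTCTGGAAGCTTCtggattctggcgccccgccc
HSPA8, chr11:123062159-123062211, minus strand: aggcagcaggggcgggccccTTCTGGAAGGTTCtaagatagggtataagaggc
HSPD1, chr2:197500048-197500090, minus strand: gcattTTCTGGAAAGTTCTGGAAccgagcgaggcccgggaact
DNAJB6, chr7:157336853-157336905, plus strand: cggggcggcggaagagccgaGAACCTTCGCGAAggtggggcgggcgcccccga
CHORDC1, chr11:90223067-90223129, minus strand: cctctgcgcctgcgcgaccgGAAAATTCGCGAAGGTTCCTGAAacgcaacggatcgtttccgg
HSPA1A, chr6:31815417-31815464, plus strand: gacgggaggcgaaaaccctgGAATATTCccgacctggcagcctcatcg
HSPA1B, chr6:31827613-31827660, plus strand: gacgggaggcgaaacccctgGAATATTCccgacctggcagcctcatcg

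Most of these genes were abundant. The median of their mean levels over the 6 libraries was 128 FPKM, against 10.2 FPKM for all loci tested. HSP90AB1, the constitutive cytosolic HSP90, had the highest mean level at 1378 FPKM, followed by HSP90AA1, its inducible paralog, at 952 and HSPA8, the constitutive HSP70, at 832. The lowest mean levels among the 41 genes tested were those of RPAP3, DNAJB4 and HSPA13, at 6.57, 7.09 and 9.64 FPKM. The stress-inducible HSP70 genes were the 2 that did not reach a mean of 1 FPKM and were not tested. HSPA1A was listed at 0 in every library. HSPA1B was at 0.698 and 0.442 FPKM in siEZH1 TNF and siEZH1 PBS, at 0.105 and 0.053 in siUXT TNF and siUXT PBS, and at 0.489 and 0.401 in NC TNF and NC PBS. A read that matches both copies may be lost or split, so these values need not show the level of either gene. HSPE1 carries the same values as MOB4 and the readthrough gene HSPE1-MOB4, and its values cannot be assigned to 1 gene. The other 40 loci tested hold 1 protein-coding symbol each.

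**Figure D1:**
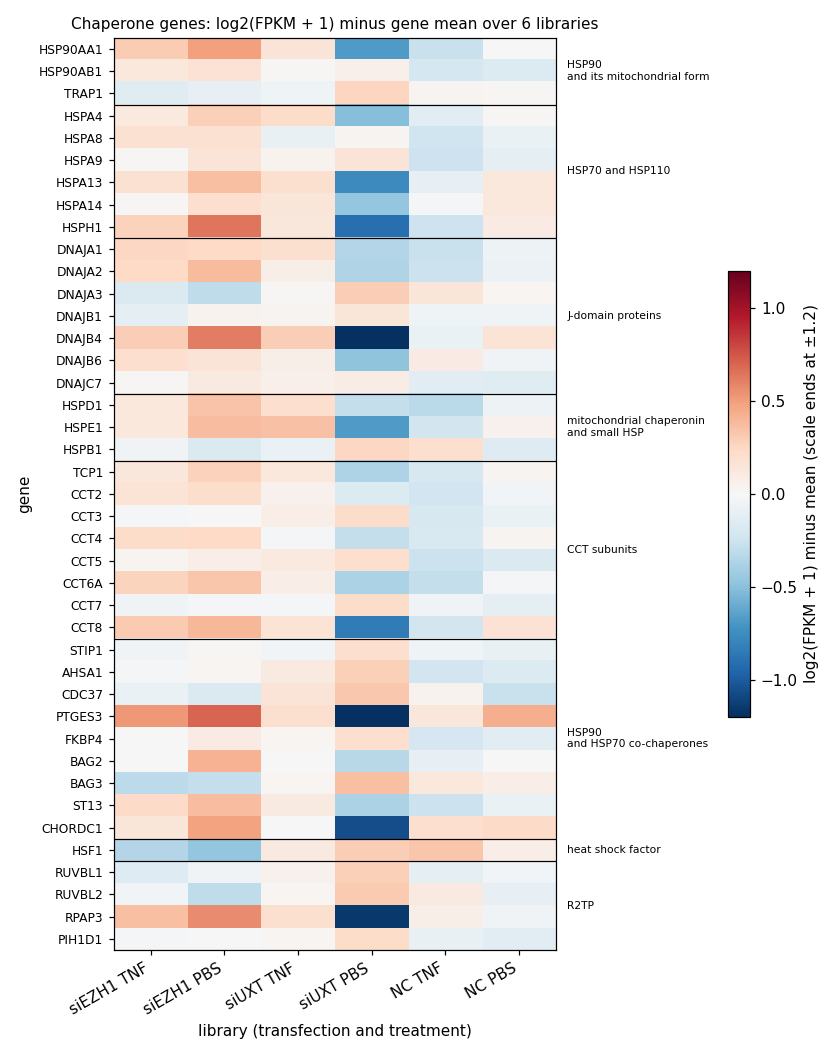
Level of each of the 41 tested chaperone genes in each library as log2(FPKM + 1) minus the gene's mean over the 6 libraries (red above, blue below the mean, colours end at ±1.2), with genes in rows by role and libraries in columns. The siUXT PBS column holds the lowest value of 19 genes and the highest of 15 (30.6% and 33.7% of all loci). Both siEZH1 columns lie above both NC columns for 29 genes (31.1% of all loci).

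After siEZH1, most chaperone genes were higher than in NC under both treatments, while HSF1 was lower. The median change over the 41 genes was 0.25 under TNF and 0.24 under PBS, against 0.02 and 0.00 over all loci tested. Both siEZH1 libraries lay above both NC libraries for 29 of the 41 genes (31.1% of all loci did so) and below both for 4 (28.4% of all loci), which were HSF1, BAG3, DNAJA3 and TRAP1. A change above 0 was seen in 30 genes under TNF and 34 under PBS (52.3% and 50.5% of all loci). Differences of at least 25% were counted on FPKM + 1, here and below. At least 25% higher in siEZH1 were 16 genes under TNF and 10 under PBS (19.7% and 13.2% of all loci), 8 of them under both (7.4%), and 2 genes were lower by the same ratio under both (11.3%). In limma's fit to the 4 siEZH1 and NC libraries, with transfection and treatment as terms and 1 residual degree of freedom, 21 of the 41 passed as higher and 3 as lower at a Benjamini-Hochberg adjusted p under 0.05, against 11.6% and 14.6% of all loci. The 4-library fit was an alternative to the main fit, which was made to all 6 libraries. In the main fit, limma called 0 of the 41 for siEZH1 and 2 loci in all (0% of loci higher and 0.0169% lower). There the lowest Benjamini-Hochberg adjusted p of the 41 was 0.60, and 3 genes had an unadjusted p under 0.05 (2 higher, 1 lower), as did 8.21% of loci. The error of that fit includes the difference between siUXT TNF and siUXT PBS. In the 4-library fit the residual of a gene is the difference of the siEZH1 effect between the treatments. Its error is drawn by limma towards a variance shared by loci of similar level, and it leaves out the spread between repeated transfections. Standard errors and passes given next for siEZH1 are those of the 4-library fit, while 0 of the 41 passed in the main fit. When 1 library was left out of the 6, the siEZH1 change of HSPH1 ran from 0.182 without siEZH1 PBS to 0.892 without siEZH1 TNF, and that of HSP90AA1 from 0.229 without NC TNF to 0.826 without NC PBS. Likewise CCT6A ran from 0.215 to 0.688 and ST13 from 0.29 to 0.637, both lowest without NC TNF and highest without NC PBS, and DNAJA2 from 0.311 without NC TNF to 0.64 without NC PBS.

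HSP90AA1 was at 1134 and 1292 FPKM in siEZH1 TNF and siEZH1 PBS, against 764 and 922 in NC TNF and NC PBS. Its siEZH1 values thus exceeded both NC values, with a log2 difference of 0.53 ± 0.06 (SE; limma, 4 libraries, Benjamini-Hochberg adjusted p = 0.0080). HSP90AB1 was at 1500 and 1551 FPKM in the same siEZH1 libraries, against 1182 and 1225 in NC, a log2 difference of 0.34. TRAP1, the mitochondrial HSP90, was at 120 and 124 FPKM in siEZH1 against 136 and 134 in NC, and did not pass the test (limma, 4 libraries, Benjamini-Hochberg adjusted p = 0.122).

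Among HSP70 genes, HSPA8 was at 940 FPKM in both siEZH1 libraries, against 702 and 785 in NC TNF and NC PBS. HSPA9 (mortalin), the mitochondrial HSP70, was at 148 and 164 FPKM in siEZH1 against 124 and 135 in NC. HSPA4 (APG-2), an HSP110-type nucleotide exchange factor, was at 68.9 and 77.3 against 57.8 and 64.1. All of these were higher without overlap. HSPH1 (HSP105), another HSP110 family member, showed the highest positive siEZH1 difference of the 41 genes. It was at 41.6 and 53.8 FPKM in siEZH1 TNF and siEZH1 PBS, against 28.5 and 36.5 in NC, a log2 difference of 0.54 ± 0.07 (limma, 4 libraries, Benjamini-Hochberg adjusted p = 0.0087). HSPA13, a microsome-associated HSP70, was at 10.7 and 12.3 FPKM against 8.67 and 10.3 in NC, and HSPA14, a ribosome-associated one, at 17.8 and 20.5 against 17.5 and 19.4. Neither of these passed the test.

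The J-domain proteins, which deliver clients to HSP70 and stimulate its ATPase, were divided. DNAJA2 was at 33.1 and 36.7 FPKM in siEZH1 TNF and siEZH1 PBS, against 23.1 and 26.5 in NC TNF and NC PBS, and DNAJA1 at 161 and 160 against 112 and 130. Both were higher without overlap, as was DNAJB4, at 8.24 and 10.5 FPKM against 6.11 and 7.42. DNAJA3, the mitochondrial member, was lower at 32.7 and 29.6 FPKM against 40.9 and 37.6, with a log2 difference of -0.32 ± 0.07 (limma, 4 libraries, Benjamini-Hochberg adjusted p = 0.0236). DNAJB1 (HSP40), the main partner of inducible HSP70, was at 73.7 and 82.8 FPKM in siEZH1 and 77.3 and 77.7 in NC, with overlapping values. DNAJB6 and DNAJC7 had log2 differences of 0.15 and 0.20 and did not pass.

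The mitochondrial chaperonin genes HSPD1 (HSP60) and HSPE1 (HSP10) were both higher. HSPD1 was at 510 and 594 FPKM in siEZH1 TNF and siEZH1 PBS, against 375 and 449 in NC TNF and NC PBS, with a log2 difference of 0.42 ± 0.06 (limma, 4 libraries, Benjamini-Hochberg adjusted p = 0.0094). The HSPE1 locus was at 262 and 311 FPKM against 206 and 249. HSPB1 (HSP27), a small heat shock protein that holds unfolding proteins without ATP, was at 363 and 331 FPKM in siEZH1 and 430 and 335 in NC and did not pass.

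Of the 8 CCT subunit genes, 6 passed as higher in the 4-library fit and none as lower. CCT6A was at 144 and 150 FPKM in siEZH1 TNF and siEZH1 PBS, against 97.4 and 118 in NC TNF and NC PBS, the largest CCT difference at 0.45 ± 0.07. CCT8 was at 225 and 238 FPKM against 155 and 204, CCT2 at 270 and 280 against 206 and 237, CCT4 at 211 and 213 against 158 and 184, TCP1 (CCT1) at 188 and 208 against 150 and 175, and CCT5 at 164 and 170 against 134 and 143. For each of these 6 the siEZH1 values lay above both NC values. CCT3 and CCT7 did not pass, with log2 differences of 0.12 and 0.05.

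Among co-chaperones, ST13 (HIP), which binds HSP70, was at 101 and 112 FPKM in siEZH1 TNF and siEZH1 PBS, against 72.0 and 81.6 in NC TNF and NC PBS. Its log2 difference was 0.46 ± 0.06 (limma, 4 libraries, Benjamini-Hochberg adjusted p = 0.0090). PTGES3 was at 269 and 304 FPKM against 205 and 253, and FKBP4 (FKBP52), a peptidyl-prolyl isomerase of steroid receptor complexes, at 80.9 and 86.5 against 69.9 and 73.6. Both passed as higher. BAG3, an HSP70 nucleotide exchange factor of selective autophagy, passed as lower at 28.0 and 28.5 FPKM in siEZH1 against 38.1 and 37.0 in NC, with a log2 difference of -0.40 ± 0.07 (limma, 4 libraries, Benjamini-Hochberg adjusted p = 0.0151). AHSA1, BAG2, CHORDC1, STIP1 and CDC37 had log2 differences between -0.01 (CDC37) and 0.26 (BAG2) and did not pass. BAG2 was at 20.6 and 27.8 FPKM in siEZH1 TNF and siEZH1 PBS, against 19.1 and 20.6 in NC TNF and NC PBS, CHORDC1 at 25.6 and 32.6 against 26.7 and 27.2, and AHSA1 at 138 and 142 against 119 and 125. HSF1 itself was at 32.5 and 29.9 FPKM in siEZH1 TNF and siEZH1 PBS, against 52.7 and 44.2 in NC TNF and NC PBS. This was the most negative siEZH1 difference of the 41 genes, at -0.61 ± 0.07 (limma, 4 libraries, Benjamini-Hochberg adjusted p = 0.0080). The 7 genes with a 3-unit element had median siEZH1 changes of 0.42 under TNF and 0.30 under PBS, and the 28 tested genes whose windows lacked it 0.23 and 0.23.

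In R2TP, only RPAP3, the scaffold that binds HSP90 and HSP70, passed for siEZH1. It was at 8.17 and 9.53 FPKM in siEZH1 TNF and siEZH1 PBS, against 6.48 and 5.92 in NC TNF and NC PBS, a log2 difference of 0.45 ± 0.12 (limma, 4 libraries, Benjamini-Hochberg adjusted p = 0.0433). RUVBL1, a ring ATPase of the complex, was at 66.9 and 72.3 FPKM in siEZH1 and 68.4 and 72.8 in NC. Its partner RUVBL2 was at 124 and 103 against 137 and 118, and PIH1D1, the adaptor that recruits phosphorylated clients, at 59.5 and 60.5 against 56.6 and 54.6. These did not pass, with log2 differences of -0.02, -0.17 and 0.11.

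**Figure D2:**
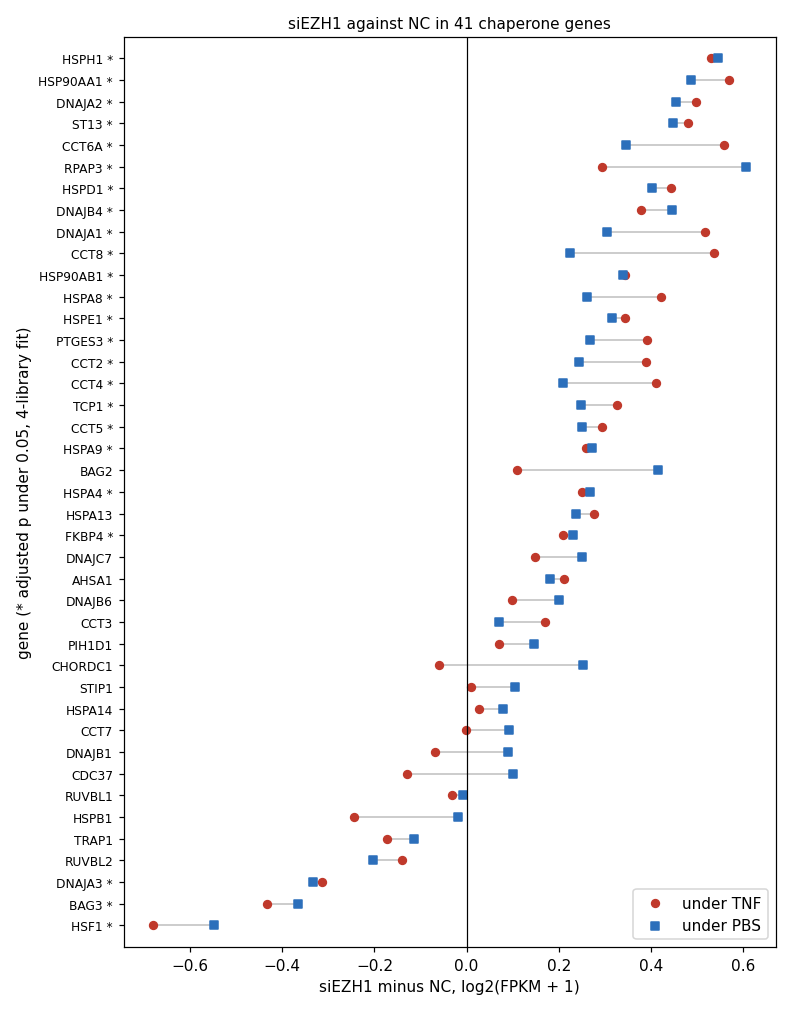
Change after siEZH1 (siEZH1 minus NC, log2(FPKM + 1)) of each of the 41 genes under TNF (red circles) and PBS (blue squares), ordered by the mean, with an asterisk where the 4-library limma fit gave an adjusted p under 0.05. Values under both treatments lie above 0 for 30 genes (40.7% of all loci), HSPH1 lies highest and HSF1 lowest. The main fit to all 6 libraries called 0 of the 41 genes (0% of loci higher and 0.0169% lower).

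After siUXT, the chaperone genes did not move in one direction under both treatments. In siUXT TNF the median change was 0.19 against NC TNF, with 33 of 41 genes above 0 (52.0% of all loci), 13 at least 25% higher (14.1%) and 0 lower by the same ratio (13.6%). In siUXT PBS the median change was -0.14 against NC PBS, with 20 genes above 0 (53.4% of all loci), 8 at least 25% higher (21.8%) and 15 lower by the same ratio (26.5%). Over all loci the medians were 0.01 and 0.04. The PBS median lies in a gap between genes that were lower and genes that were higher, and without the HSPE1 locus it was -0.01. In 19 genes the change was above 0 under TNF and below 0 under PBS (29.2% of all loci), and 6 had the reverse (30.5%). The siUXT effect averaged over both treatments, in limma's additive fit to all 6 libraries, passed for 0 of the 41 genes (0.0253% of loci passed as higher and 0.0169% as lower). In that limma fit the lowest Benjamini-Hochberg adjusted p was 0.908, and 2 genes had an unadjusted p under 0.05, as did 3.65% of loci.

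The difference between the treatments was tested with a siUXT by treatment term, which takes the TNF minus PBS difference in siUXT and subtracts the mean of that difference in siEZH1 and NC. It leaves 1 residual degree of freedom, the siEZH1 by treatment difference. The term passed for 22 of the 41 genes, 19 with a positive and 3 with a negative difference, against 18.4% and 13.2% of all loci (limma, Benjamini-Hochberg adjusted p under 0.05). With no filter on low values none of them passed (limma, lowest Benjamini-Hochberg adjusted p = 0.138), although 23 had an unadjusted p under 0.05, as did 27.6% of loci. Without an intensity trend in the variance 11 passed, and 1601 of the 11845 loci. Each condition is 1 library, so an effect of siUXT that depends on TNF and a difference of the siUXT PBS library as a whole cannot be told apart. Read depth was lower under TNF than under PBS in NC and siEZH1 but hardly differed in siUXT. Its part in this term was not tested.

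PTGES3, which stabilises the closed form of HSP90, had the largest difference of the 41 genes. It was at 214 FPKM in siUXT TNF and 46.5 in siUXT PBS, against 205 in NC TNF and 253 in NC PBS, and at 269 and 304 in the siEZH1 libraries. The siUXT PBS value was thus 0.184 of that in NC PBS and below all the others, while siUXT TNF was at 1.04 of NC TNF. The difference was 2.42 ± 0.11 on the log2 scale (SE; limma, Benjamini-Hochberg adjusted p = 6.8e-04). CHORDC1, another HSP90 co-chaperone, was at 23.0 and 10.5 FPKM in siUXT TNF and siUXT PBS, against 26.7 and 27.2 in NC TNF and NC PBS. Unlike PTGES3 it was lower than NC under both treatments, and the difference was 1.24 ± 0.17. ST13 was at 92.7 and 66.0 FPKM against 72.0 and 81.6, and BAG2, a cofactor that inhibits ubiquitination by the HSP70-bound ligase CHIP, at 20.7 and 16.1 against 19.1 and 20.6. Both also passed.

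The HSP90 co-chaperones AHSA1, CDC37, STIP1 and FKBP4 did not show the low value in siUXT PBS, and nor did BAG3 and HSF1. AHSA1, the activator of the HSP90 ATPase, was at 151 and 171 FPKM in siUXT TNF and siUXT PBS, against 119 and 125 in NC TNF and NC PBS, and so was higher under both treatments without overlap. CDC37, which delivers protein kinases, was at 197 and 221 FPKM against 182 and 146, STIP1 at 142 and 167 against 140 and 137, and FKBP4 at 81.9 and 92.5 against 69.9 and 73.6. BAG3 was at 35.6 and 45.2 FPKM against 38.1 and 37.0, and HSF1 at 45.0 and 51.2 against 52.7 and 44.2. None of these 6 passed the test of the difference. As a description, PTGES3 was at 1.51 times the level of STIP1 in siUXT TNF and 0.279 times in siUXT PBS, against 1.46 and 1.85 times in NC TNF and NC PBS.

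The HSP90 paralogs also parted in siUXT PBS. HSP90AA1 was at 1025 FPKM in siUXT TNF and 573 in siUXT PBS, against 764 in NC TNF and 922 in NC PBS, with a difference of 1.07 ± 0.10 (limma, Benjamini-Hochberg adjusted p = 0.0024). HSP90AB1 was at 1382 and 1427 FPKM against 1182 and 1225, with a difference of 0.00. The ratio of HSP90AA1 to HSP90AB1 was 0.742 in siUXT TNF and 0.402 in siUXT PBS, against 0.646 in NC TNF and 0.752 in NC PBS. TRAP1 was at 128 and 159 FPKM against 136 and 134 and did not pass.

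Among HSP70 and HSP110 genes, HSPH1 was at 37.4 FPKM in siUXT TNF and 17.7 in siUXT PBS, against 28.5 in NC TNF and 36.5 in NC PBS. HSPA13 was at 10.8 and 5.10 FPKM against 8.67 and 10.3, HSPA4 at 74.0 and 44.3 against 57.8 and 64.1, and HSPA14 at 19.6 and 12.5 against 17.5 and 19.4. All 4 were above NC under TNF and below it under PBS and passed, with differences of 1.40, 1.16, 0.88 and 0.77. HSPA8 was at 780 and 848 FPKM in siUXT TNF and siUXT PBS, against 702 and 785 in NC, and HSPA9 at 151 and 163 against 124 and 135. Both differences lay within 0.04 of 0 and did not pass.

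The chaperonin genes of mitochondria and cytosol were divided as well. The HSPE1 locus was at 307 FPKM in siUXT TNF and 150 in siUXT PBS, against 206 in NC TNF and 249 in NC PBS, a difference of 1.29 ± 0.10 (limma, Benjamini-Hochberg adjusted p = 0.0013). HSPD1 was at 538 and 384 FPKM against 375 and 449, a difference of 0.73 ± 0.10. HSPB1 went the other way at 352 and 445 FPKM against 430 and 335, a difference of -0.58 ± 0.13 (limma, Benjamini-Hochberg adjusted p = 0.0205). Within CCT, CCT8 was at 202 FPKM in siUXT TNF and 100.2 in siUXT PBS, against 155 in NC TNF and 204 in NC PBS, a difference of 1.24 ± 0.15. TCP1 was at 187 and 133 FPKM against 150 and 175, and CCT6A at 126 and 91.3 against 97.4 and 118, and these were the other CCT genes that passed. CCT2 was at 249.7 and 215 FPKM against 206 and 237, and CCT4 at 178 and 148 against 158 and 184, and their differences of 0.34 and 0.38 did not pass. CCT5 was instead higher under both treatments at 175 and 184 FPKM against 134 and 143, CCT3 was at 456 and 501 against 377 and 409, and CCT7 at 315 and 370 against 309 and 295. The subunits occupy the CCT ring in equal numbers, but their RNA levels spread 3.63-fold between the lowest and highest subunit in siUXT TNF and 5.49-fold in siUXT PBS, against 3.87-fold and 3.46-fold in NC TNF and NC PBS.

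**Figure D3:**
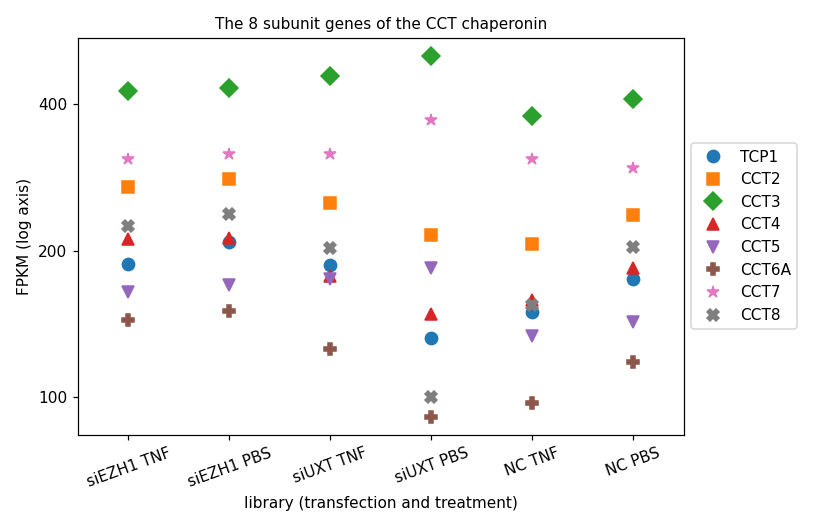
FPKM (log axis) of the 8 CCT subunit genes in the 6 libraries, with 1 symbol per gene. CCT3 is highest and CCT6A lowest in every library, and CCT8, at 100.2 FPKM in siUXT PBS, lies between 155 and 238 FPKM in the other libraries.

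DNAJB4 had the second largest difference of the 41 genes at 1.86 ± 0.19 (limma, Benjamini-Hochberg adjusted p = 0.0026). It was at 8.21 FPKM in siUXT TNF and 2.07 in siUXT PBS, against 6.11 in NC TNF and 7.42 in NC PBS. DNAJA1 was at 155 and 106 FPKM against 112 and 130, DNAJA2 at 29.3 and 21.5 against 23.1 and 26.5, and DNAJB6 at 63.1 and 42.8 against 64.3 and 58.1. These passed as well, with differences of 0.64, 0.59 and 0.46. DNAJA3 passed in the other direction at 37.4 and 45.5 FPKM against 40.9 and 37.6, a difference of -0.41. DNAJB1 and DNAJC7, with differences of -0.03 and 0.01, did not pass.

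In R2TP, RPAP3 and RUVBL2 passed in opposite directions. RPAP3 was at 7.15 FPKM in siUXT TNF and 2.19 in siUXT PBS, against 6.48 in NC TNF and 5.92 in NC PBS, a difference of 1.40 ± 0.22 (limma, Benjamini-Hochberg adjusted p = 0.0087). RUVBL2 was at 129 and 158 FPKM against 137 and 118, a difference of -0.54 ± 0.11 in the other direction (limma, Benjamini-Hochberg adjusted p = 0.016). RUVBL1 was at 76.8 and 90.9 FPKM against 68.4 and 72.8, and PIH1D1 at 61.1 and 70.1 against 56.6 and 54.6. Both were above both NC values but did not pass the test of the difference.

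**Figure D4:**
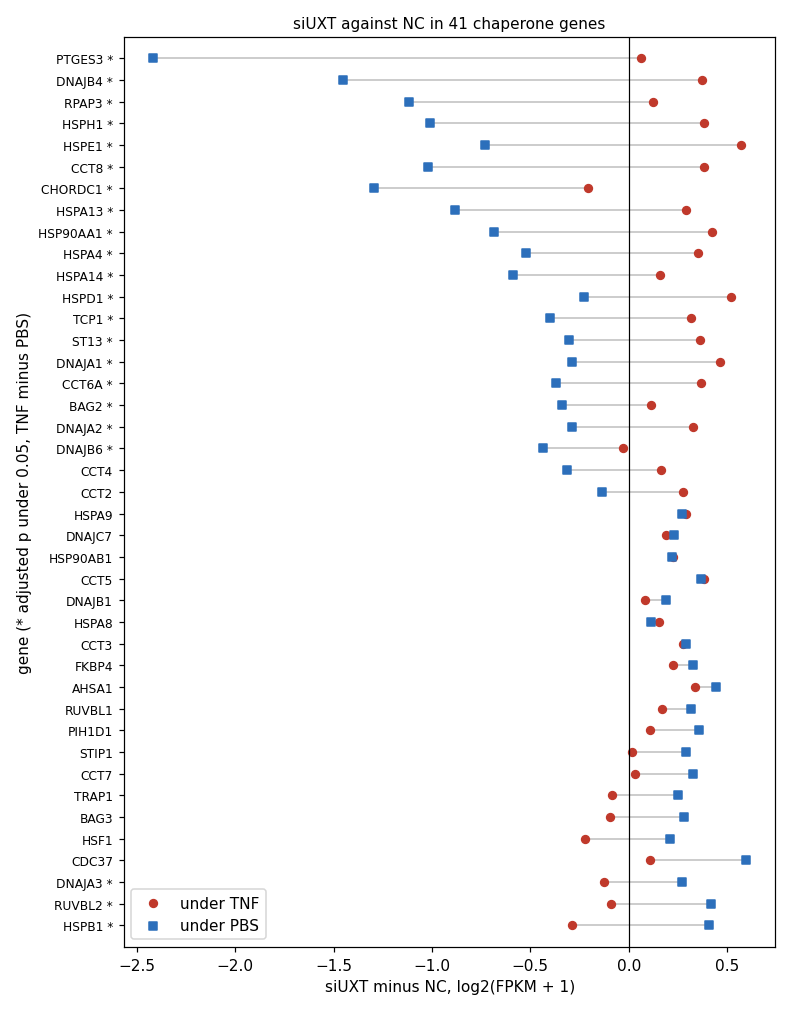
Change after siUXT (siUXT minus NC, log2(FPKM + 1)) of each of the 41 genes under TNF (red circles) and PBS (blue squares), ordered by the siUXT by treatment term, with an asterisk where limma gave that term an adjusted p under 0.05. PTGES3 has the widest gap, at 0.06 under TNF and -2.42 under PBS, and the 3 genes at the foot, HSPB1, RUVBL2 and DNAJA3, run the other way.

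Set against NC one library at a time, siUXT PBS carried most of the calls. In limma's additive fit without siUXT TNF, 11 of the 41 genes passed as higher in siUXT PBS and 14 as lower, against 12.0% and 18.4% of all loci. Those with the most negative values were PTGES3 at -2.38, DNAJB4 at -1.47, CHORDC1 at -1.37 and RPAP3 at -1.2, and those with the most positive CDC37 at 0.54, AHSA1 at 0.45 and RUVBL2 at 0.43. In the fit without siUXT PBS only HSPE1 at 0.56 and HSPD1 at 0.51 passed, both as higher in siUXT TNF, against 0.439% of all loci, and none as lower (0.65% of all loci). These fits hold a single siUXT library, whose spread is taken to equal that of the others. With the siUXT and NC libraries alone, PTGES3 was the 1 gene that passed for the mean siUXT effect, at -1.18 (limma, Benjamini-Hochberg adjusted p = 0.0123), against 0.329% of all loci called lower. The median siUXT change of the 7 genes with a 3-unit element was 0.22 under TNF and -0.29 under PBS, and that of the 28 tested genes without it 0.18 and 0.21. Under PBS both sets held genes on either side of 0, so these medians do not part them. With the element, CHORDC1 was at -1.29 and HSP90AB1 at 0.22. Without it, PTGES3 was at -2.42 and CDC37 at 0.59.

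TNF itself passed limma's test for none of the 41 genes in the additive fit to all 6 libraries, at a Benjamini-Hochberg adjusted p of 0.999 for each. In that limma fit 0 genes had an unadjusted p under 0.05, against 3.96% of loci. Of all loci, 0.405% passed as higher and 0.00844% as lower. The median difference, TNF minus PBS, was -0.08 in siEZH1, 0.22 in siUXT and -0.11 in NC, against 0.01, -0.05 and -0.02 over all loci. Without the HSPE1 locus the siUXT median was 0.09. TNF was above PBS for 7 genes in siEZH1, 21 in siUXT and 13 in NC (51.2%, 45.8% and 47.2% of all loci). TNF exceeded PBS by at least 25% for 0 genes in siEZH1, 19 in siUXT and 1 in NC (10.5%, 27.4% and 11.0% of all loci), and PBS exceeded TNF by at least 25% for 3, 2 and 2 genes (7.77%, 21.0% and 11.6%). In 9 genes TNF was below PBS in all 3 transfections (11.1% of all loci), among them HSPA9 at -0.14, -0.11 and -0.13 and FKBP4 at -0.09, -0.17 and -0.07 in siEZH1, siUXT and NC. Only DNAJB6 was above PBS in all 3 (9.08% of all loci), at 69.0, 63.1 and 64.3 FPKM under TNF in siEZH1, siUXT and NC against 66.9, 42.8 and 58.1 under PBS. In 18 genes TNF was below PBS in siEZH1 and NC but above it in siUXT (23.9% of all loci). HSPH1 was one of them, at 41.6 against 53.8 FPKM in siEZH1, 37.4 against 17.7 in siUXT and 28.5 against 36.5 in NC. When either NC library was left out, PTGES3 alone passed as higher under TNF, against 0.861% of all loci without NC PBS and 0.878% without NC TNF. Its change was 1.00 in both fits (limma, Benjamini-Hochberg adjusted p = 0.0182 without NC PBS and 0.0165 without NC TNF). Without siUXT PBS its change was -0.24 and did not pass. In that fit limma called 0 of the 41 genes (2.47% of all loci higher and 0.295% lower), the lowest Benjamini-Hochberg adjusted p being 0.0575 for HSPH1, and 15 had an unadjusted p under 0.05, as did 23.1% of all loci, 11 of the 15 being lower under TNF.

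**Figure D5:**
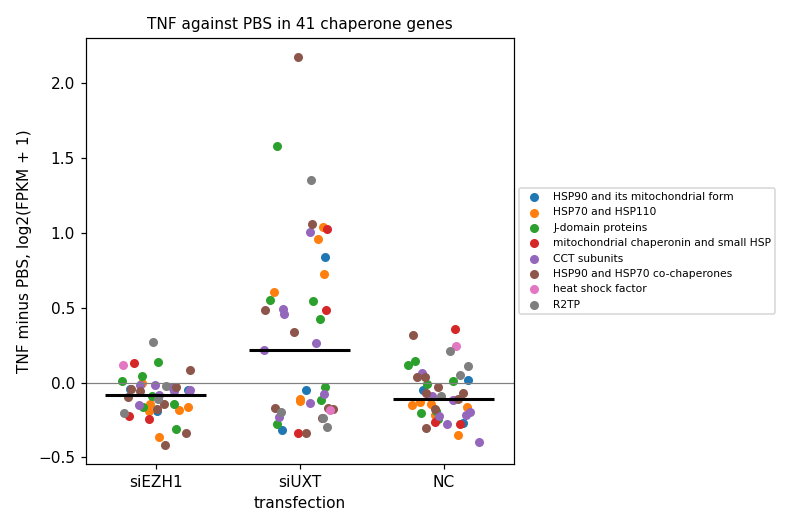
Change under TNF (TNF minus PBS, log2(FPKM + 1)) of the 41 genes in each transfection, with points coloured by role and spread sideways at random, and a black bar at the median. The medians lie at -0.08 in siEZH1, 0.22 in siUXT and -0.11 in NC.

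Related genes outside the 43 were read from lists of the same network. Of 38 tested further cytosolic chaperones and co-chaperones, 10 passed as higher and 7 as lower for siEZH1 in the 4-library fit, in which 11.6% and 14.6% of all loci did so. The siUXT by treatment term passed as positive in 9 and as negative in 8, against 18.4% and 13.2% of all loci, and the shares of the lists that follow stand against the same values. SUGT1 (SGT1), an HSP90 co-chaperone, was at 29.1 and 12.9 FPKM in siUXT TNF and siUXT PBS, against 19.6 and 24.3 in NC TNF and NC PBS. HSPB11 and DNAJC2, a ribosome-associated J-domain protein, had differences of 2.12 and 1.43. Of 18 chaperones of the endoplasmic reticulum, 3 passed as higher and 3 as lower for siEZH1, and 6 passed with a positive and 4 with a negative siUXT term, among the positive HSP90B1 (GRP94) at 0.92, DNAJB9 at 1.71 and DNAJC10 at 1.12. Of 12 mitochondrial chaperones and proteases, 2 passed as higher and 1 as lower for siEZH1, and 3 passed with a positive siUXT term and none with a negative one. The 3 were CLPX, YME1L1 and GRPEL2, at 0.91, 0.90 and 0.88.

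Of 16 tested partners of R2TP, 1 passed as higher and 4 as lower for siEZH1, and 3 passed with a positive and 2 with a negative siUXT term. URI1, the prefoldin-like partner of UXT, was at 16.0 and 18.1 FPKM in siEZH1 TNF and siEZH1 PBS and at 14.1 and 6.83 in siUXT TNF and siUXT PBS, against 10.4 and 13.2 in NC TNF and NC PBS. NUFIP1 and NOP58, of small nucleolar ribonucleoprotein assembly, had siUXT terms of 0.95 and 0.88. Of 5 tested subunits of prefoldin, which hands actin and tubulin to CCT, VBP1 and PFDN5 passed as higher for siEZH1, and PFDN4 and VBP1 passed with siUXT terms of 2.31 and 1.79. PFDN5 had a term of -0.02 that did not pass. HSF2, SIRT1, a deacetylase of HSF1, and HSBP1, which binds HSF1, passed as higher for siEZH1 at log2 differences of 0.42, 0.51 and 0.32 and passed with siUXT terms of 0.99, 1.42 and 0.81; EP300, the fourth tested gene of that list, passed in neither. Of 15 CCT clients, 1 passed as higher and 2 as lower for siEZH1. The siUXT term passed as negative in 4 of them and as positive in 0, against 13.2% and 18.4% of all loci. CDC20 and TUBB4B were among the 4, at -0.49 and -0.47. TUBA1C had a term of -0.90 that did not pass.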

How the data were processed

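The deposited unit is FPKM per gene symbol, 1 table per library. Per the submitters' processing notes the authors used FastQC, cutadapt, TopHat2 and Bowtie with build hg19; the program and annotation behind the FPKM values and the strand setting are not stated there, so overlapping and near-identical genes are uncertain. Groups came from the sample titles. Symbols with identical values were merged, which left 17642 loci above 0, and 11845 with a mean of at least 1 FPKM were tested. Values were analysed as log2(FPKM + 1), on which changes of low genes are understated, with limma 3.58.1 in R 4.3.3 (lmFit, eBayes with trend) and Benjamini-Hochberg adjustment over all loci at 0.05. The additive fit of transfection and treatment to 6 libraries leaves 2 residual degrees of freedom. The variance shared over loci added 4.42 degrees of freedom there and 5.19 in the fit with the siUXT by treatment term. Errors and p-values of a gene therefore rest in large part on that shared variance. The labels do not say whether the libraries came from separate cultures, so p-values measure only the spread between these libraries. Alternatives changed the pseudocount (0.1), filter, scaling, variance trend and libraries used. Python 3.11.15 did the rest; gene spans and promoters came from RefSeq GRCh38.p14. The genes, their lists and the tests were chosen with earlier results of these data known. The rule for printed values took the 6 genes with the largest change per term, every gene that passed and 12 fixed genes, and from each further list up to 3 genes by the size of the siEZH1 change or the siUXT term; other values were added after they were seen.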

Additional observations from a re-analysis of the deposited data

Results flagged for a closer look

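The siUXT by treatment term passed in limma with Benjamini-Hochberg adjustment for 22 of the 41 genes. It passed for 0 with no filter on low values and for 11 without a variance trend. An effect of siUXT that depends on TNF cannot be told apart here from a difference of the siUXT PBS library as a whole. Values are log2 differences, siUXT TNF minus PBS less the mean of that difference in siEZH1 and NC. The largest was PTGES3 at 2.42, followed by DNAJB4 at 1.86, RPAP3 at 1.40, HSPH1 at 1.40, HSPE1 at 1.29, CCT8 at 1.24, CHORDC1 at 1.24, HSPA13 at 1.16 and HSP90AA1 at 1.07. Between 0.5 and 1 lay HSPA4 at 0.88, HSPA14 at 0.77, HSPD1 at 0.73, TCP1 at 0.68, ST13 at 0.65, DNAJA1 at 0.64, CCT6A at 0.63, BAG2 at 0.60 and DNAJA2 at 0.59, and below them DNAJB6 at 0.46. Negative were DNAJA3 at -0.41, RUVBL2 at -0.54 and HSPB1 at -0.58. Of all loci, 18.4% had a positive and 13.2% a negative difference that passed. The siUXT PBS library holds the lowest of the 6 values for 19 of the 41 genes (30.6% of all loci) and the highest for 15 (33.7% of all loci).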

How the results depend on the processing

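The number of the 41 genes called for siEZH1 ranged from 0 to 24 when 1 library was left out, and loci called from 42 to 3132 (2 with all libraries). With NC and siEZH1 libraries only the counts were 24 genes and 3101 loci, and with a siUXT by treatment term, added after seeing the data, 24 and 3106. For siUXT the ranges were 0 to 25 genes and 46 to 3604 loci (0 and 5 with all libraries); NC and siUXT libraries only gave 1 gene, PTGES3, and 65 loci, and a pseudocount of 0.1 gave 0 loci. With 1 library left out, siUXT changes ran from -2.38 to 0.0315 for PTGES3, -1.47 to 0.39 for DNAJB4 and -1.2 to 0.202 for RPAP3, all reversed without siUXT PBS. The lowest of each came without siUXT TNF and rests on siUXT PBS alone. The highest came without siUXT PBS and rests on siUXT TNF alone. For TNF the ranges were 0 to 1 gene and 126 to 328 loci, with 329 loci under the added term and 23 with no filter (49 with all libraries). TNF changes ran from -0.241 to 0.998 for PTGES3, -0.0432 to 0.734 for RPAP3, -0.278 to 0.669 for DNAJB4, -0.182 to 0.517 for CHORDC1 and -0.2 to 0.388 for HSPA13; the lowest of each came without either siUXT library and also with the added term. The siUXT by treatment term passed for 22 genes and 3746 loci, for 0 and 0 with no filter (23 genes and 4867 loci at an unadjusted p under 0.05) and for 11 and 1601 without a variance trend; the cause was not tested. None of the 22 changed sign with a pseudocount of 0.1 or with size factors. The filter and the variance trend do not alter these estimates, and the term was not fitted with a library left out. Median changes of single pairs kept their sign under another pseudocount, size factors, removal of the gene span trend and without the HSPE1 locus. By over 1.5 times moved those of siUXT: under PBS -0.138 became -0.0131 without that locus and -0.212 with the span trend removed, and TNF minus PBS in siUXT, 0.216, became 0.0933 without it. No paired analysis by replicate number was possible because the labels give no replicate numbers; TNF fitted without transfection as a block (no replicate block) called 0 of the 41 genes and 54 loci. Read counts are not given, so counting error is unknown.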

Other observations

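HSPA1A lies in a stretch of genes that are mostly listed at or near 0. Of 37 listed protein-coding genes among its 20 nearest on either side, HSPA1B left out, 21 were at 0 in all 6 libraries (56.8%) and 35 had a mean under 1 FPKM (94.6%), against 18.4% and 38.9% of all 18832 protein-coding symbols. How reads from this stretch were assigned was not tested.

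Comparisons that share no library can be set side by side. Across the 41 genes, siEZH1 changes under TNF and PBS had a Pearson correlation of 0.873 (0.486 over 11845 loci), and siUXT changes under TNF and siEZH1 changes under PBS one of 0.687 (0.393). The siUXT changes under PBS correlated negatively with siEZH1 changes under TNF, at -0.469 (-0.316 over all loci), and with siUXT changes under TNF, at -0.241 (-0.121). The points share libraries and their depth, and are given as a description only.

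Over 11380 loci with a gene span in RefSeq, the Spearman correlation of span with the change was 0.275 and 0.263 for siEZH1 under TNF and PBS and 0.183 and -0.216 for siUXT under TNF and PBS. Across the 41 genes these values were -0.198, -0.08, -0.177 and -0.247. Their median span was 20.6 kb, against 29.6 kb. The part of gene span in the changes was not tested beyond the removal of its trend.

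The loci outside the list whose levels over the 6 libraries were most like the mean profile of the 41 genes were FXR1, DHX36, NAE1, the locus that holds KIAA1598 and IDI1, with Pearson correlations between 0.996 and 0.998. FXR1 was at 20.1 and 24.3 FPKM in siEZH1 TNF and siEZH1 PBS and 19.5 and 9.68 in siUXT TNF and siUXT PBS, against 13.3 and 15.3 in NC TNF and NC PBS. These 5 were chosen for that likeness out of all tested loci outside the list. The mean profile averages over 19 genes that were lowest in siUXT PBS and 15 that were highest there (30.6% and 33.7% of all loci). The correlations were not computed without that library.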
